A study of Mus musculus with 12 samples.

Results

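Nicotinic acetylcholine receptor subunits, the proteins that assemble or modulate the receptor, and the enzymes that break down acetylcholine were followed across cultured mouse Müller glia. The 10 genes were chosen by name and matched by mouse symbol among the 49315 genes of the count tables: Chrna7, Chrna1, Chrnb1, Chrnd, Chrng, Ric3, Ly6e, Lynx1, Ache and Bche. The rule itself uses no measured value, but the genes and lists were chosen with earlier results of these data known. Müller glia are the main glial cells of the retina. Wild-type (WT) primary Müller glia from mouse retina, passaged at least 3 times, shared transwell plates with primary retinal pigment epithelium (RPE), the cell layer behind the photoreceptors. That epithelium had been given 100 nM PNU-282987, an agonist of the α7 nicotinic receptor, or only the solvent DMSO, and RNA was taken from the glia after 2 h or 6 h. The 4 groups, called here PNU 2 h, DMSO 2 h, PNU 6 h and DMSO 6 h, held 3 libraries each and shared the genotype, the passaging and the co-culture. The concentration of DMSO is given differently in different places of the labels and is not used here. The age of the mice and the number of animals behind each culture are not given in the sources used here.

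The nicotinic receptor is an ion channel of several subunits that opens when acetylcholine binds. Chrna7 encodes the α7 subunit, which forms a channel from copies of itself, whereas the receptor of skeletal muscle combines the products of Chrna1, Chrnb1 and Chrnd with that of Chrng before birth and of Chrne later. In the endoplasmic reticulum the chaperone Ric3 helps α7 subunits to fold and assemble. Lynx1 and Ly6e are small proteins anchored to the membrane by a lipid, and Lynx1 binds nicotinic receptors and dampens their response. Acetylcholinesterase (Ache) and butyrylcholinesterase (Bche) end the signal by cleaving acetylcholine.

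Promoters were sought for all 10 genes. Printed are those of Chrna7, of the muscle subunits called between times within PNU (Chrna1, Chrng) and of Chrnb1, which was not called. RefSeq windows on GRCm38.p6, from 250 bases before to 50 bases after the transcript start, were matched for 6 of the 10 genes: Chrna7, Chrna1, Chrnb1, Chrng, Ache and Bche. The windows of Chrng and Ache lie wholly inside the spans counted for these genes, which begin at chr1:87204657 and chr5:137287519. Positions given for Chrng and Ache are thus from the RefSeq start and not from the start of the counted span. The sequences below are written 5′ to 3′ on the strand of the gene, and capitals mark each CANNTG, the E-box that basic helix-loop-helix factors such as the myogenic factors bind.
Chrna7 (chr7:63212477-63212776, minus strand): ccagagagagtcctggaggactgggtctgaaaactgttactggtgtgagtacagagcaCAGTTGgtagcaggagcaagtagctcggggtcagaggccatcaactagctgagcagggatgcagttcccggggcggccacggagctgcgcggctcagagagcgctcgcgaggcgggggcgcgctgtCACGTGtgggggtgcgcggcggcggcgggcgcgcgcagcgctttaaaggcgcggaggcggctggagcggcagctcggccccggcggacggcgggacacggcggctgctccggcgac
Chrna1 (chr2:73580289-73580588, minus strand): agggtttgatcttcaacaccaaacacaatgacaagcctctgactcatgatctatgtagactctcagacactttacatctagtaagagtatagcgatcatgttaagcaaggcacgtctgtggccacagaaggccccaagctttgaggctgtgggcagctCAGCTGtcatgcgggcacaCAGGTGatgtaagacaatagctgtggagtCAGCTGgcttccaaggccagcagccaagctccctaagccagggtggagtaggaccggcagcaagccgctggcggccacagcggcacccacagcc
Chrnb1 (chr11:69795888-69796187, minus strand): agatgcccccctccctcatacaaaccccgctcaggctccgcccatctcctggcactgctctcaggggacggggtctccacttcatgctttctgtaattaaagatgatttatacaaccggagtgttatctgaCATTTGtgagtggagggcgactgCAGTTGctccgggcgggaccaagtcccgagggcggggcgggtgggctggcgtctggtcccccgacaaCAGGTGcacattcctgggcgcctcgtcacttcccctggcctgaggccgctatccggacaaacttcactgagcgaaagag
Chrng (chr1:87205561-87205860, plus strand): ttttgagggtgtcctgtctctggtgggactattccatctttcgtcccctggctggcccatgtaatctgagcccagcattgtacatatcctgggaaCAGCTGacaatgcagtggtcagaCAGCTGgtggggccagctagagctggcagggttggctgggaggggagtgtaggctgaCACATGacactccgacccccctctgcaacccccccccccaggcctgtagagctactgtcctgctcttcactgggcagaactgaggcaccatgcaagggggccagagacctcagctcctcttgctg
CANNTG occurred 2 times for Chrna7, 3 times for Chrna1, 3 times for Chrnb1, 3 times for Chrng, 1 time for Ache and 2 times for Bche, counting both strands, on which this palindrome reads alike. Over all 32851 promoters of that length, 72.31% held at least 1 CANNTG and 17.61% held 3 or more. CAGCTG, a form contained within CANNTG and counted there too, occurred 2 times for Chrna1, at -92 and -44 bases from the start, and 2 times for Chrng, at -155 and -132 bases. It did not occur in the windows of Chrna7, Chrnb1, Ache or Bche, of which Ache and Bche were also called between times within PNU. Of all promoters, 16.3% held 1 or more and 1.896% held 2 or more. CCGGAA, the N-box of muscle receptor genes, was searched on both strands and occurred in none of the 6 windows and in 14.9% of all promoters. These matches describe letters in the window and do not show binding.

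Totals ran from 44332013 to 66518799 counts per library, so that the floor of 3 counts used here for detection lay between 0.0451 and 0.0677 CPM (counts scaled to a library total of 1000000). Distances between libraries, as the root mean square difference of log2(CPM + 0.5) over the 17164 genes tested, did not always follow the labels. They placed the library labelled DMSO 2 h replicate 3 nearest to PNU 2 h replicate 1 (0.23), against 0.58 and 0.63 from the other DMSO 2 h libraries. The library labelled PNU 6 h replicate 1 lay at 0.31 from each DMSO 6 h library and at 0.47 from the other PNU 6 h libraries. DMSO 2 h replicate 3 and PNU 6 h replicate 1 are the libraries left out below as standing apart. They were picked on these same values, so a result that passes only without them is no independent support. DMSO 2 h replicates 1 and 2 lay at 0.31 from each other and nearer to DMSO 6 h libraries (from 0.28 and 0.21), and PNU 2 h replicate 1 was nearer to DMSO 2 h replicate 3 than to its own group (from 0.32). Other libraries were nearly identical: all 3 DMSO 6 h libraries, PNU 2 h replicates 2 and 3, and PNU 6 h replicates 2 and 3 had a coefficient of variation of 0.0163 to 0.0223 beyond counting error, against 0.148 to 0.384 in the other pairs within groups. Their counts still differed by more than sampling noise (chi-square per degree of freedom 2.10 to 3.45), which does not show that they came from separate cultures. The main test counted them separately, as labelled, and its p-values rest on that. Results are also given with them summed. Ddx3y, a gene of the Y chromosome, stood at 2.23 CPM in PNU 2 h replicate 1, 5.00 in DMSO 2 h replicate 3, 7.43 and 6.74 in PNU 6 h replicates 2 and 3, and between 0.0150 and 0.141 in the other 8 libraries. Its part in the results was not tested.

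The listed Müller glia genes were high in part and near the floor in part. Sox9, a transcription factor of these and other cells, ran from 63.4 to 292 CPM, Glul, glutamine synthetase, from 61.5 to 94.4 CPM and Vim, an intermediate filament of many cultured cells, from 6063 to 7451 CPM. Dkk3 ran from 9.54 to 67.5 CPM, Clu from 5.53 to 42.8 and Apoe from 5.35 to 14.2. Sox2, a transcription factor of Müller glia and progenitors, stood at 8.27 to 9.39 CPM in replicates 2 and 3 of both PNU groups and at no more than 0.243 CPM in the other 8 libraries. Rlbp1, a retinoid carrier of Müller glia and RPE, reached no more than 0.302 CPM, the water channel Aqp4 no more than 0.218 and the potassium channel Kcnj10 no more than 0.110. Of 14 listed Müller glia genes, 7 had a median above 1 CPM, against 8 of 10 fibroblast genes, led by Col1a2 at 7041 to 9717 CPM. Of the 10 listed genes of pericytes and smooth muscle, 9 did. The RPE gene Rpe65 had at most 2 counts in any library. In such bulk libraries, fewer cells of a type and less RNA per cell cannot be told apart.

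Levels per kb of exon put the modulators first and the α7 subunit near the bottom. The median over the 12 libraries was 25.6 CPM per kb for Ly6e, 18.0 for Lynx1, 2.18 for Chrnb1, 0.403 for Bche, 0.227 for Ache, 0.220 for Chrna1, 0.154 for Ric3, 0.0745 for Chrna7, 0.0388 for Chrng and 0.00987 for Chrnd. The ranges over libraries did not overlap between Ly6e and Lynx1, between Lynx1 and Chrnb1, or between Chrnb1 and Bche. Below that, every pair of neighbours overlapped, so their order was not resolved beyond the spread of the libraries. Genes further apart could still separate: the lowest value of Bche (0.165) was above the highest of Chrna7 (0.136), Chrng (0.109) and Chrnd (0.0549), and the lowest of Ache (0.108), Chrna1 (0.0843) and Ric3 (0.0840) above the highest of Chrnd. On the same scale, Chrnb1 was above every other nicotinic subunit listed, and the next of those outside the 10 genes was Chrnb2, a subunit of neuronal receptors, with a median of 0.164 CPM per kb.

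**Figure D1:**
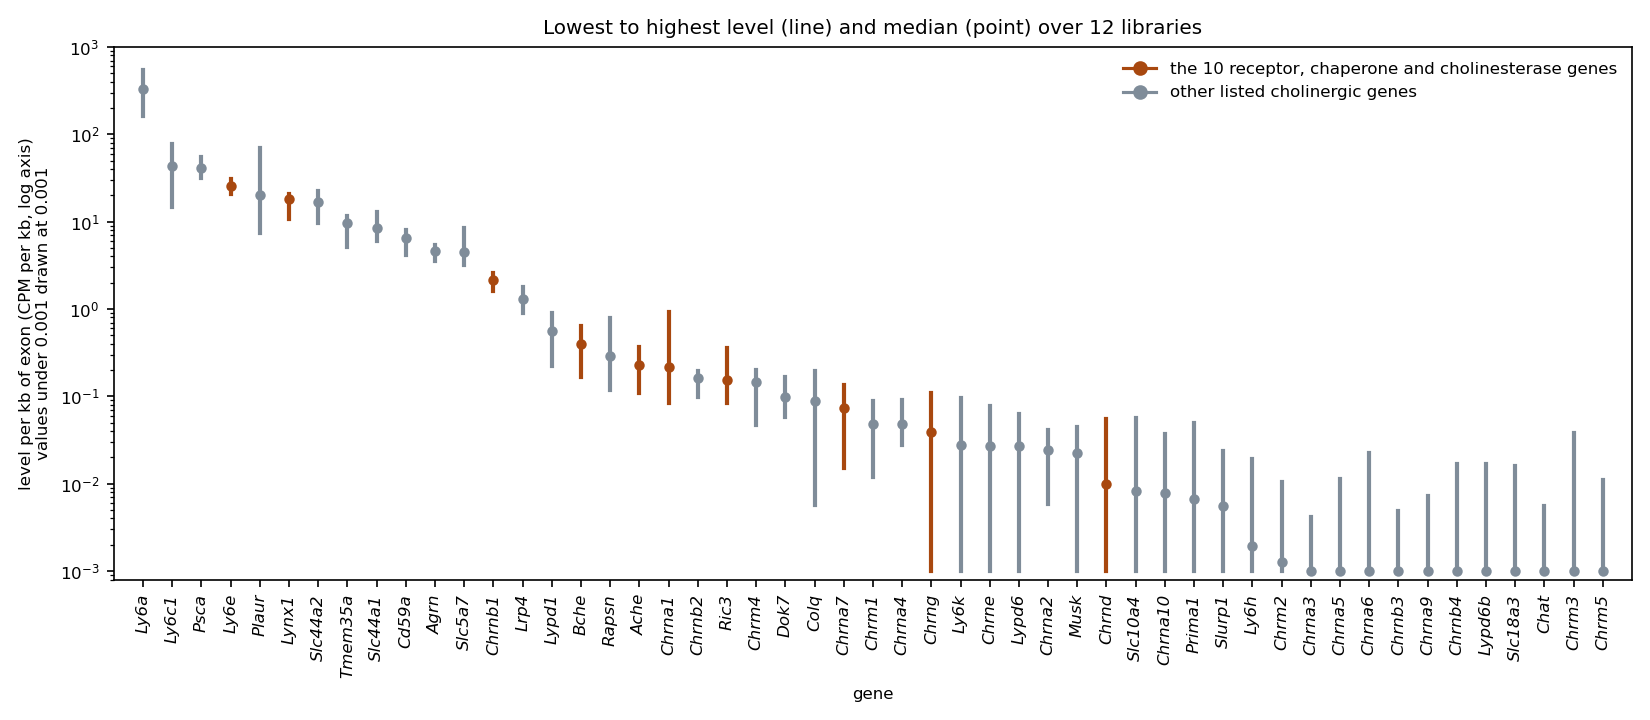
Level in CPM per kb of exon (vertical axis, log scale) of the 10 genes (dark orange) and of the other listed cholinergic genes (grey), as the median (point) and the lowest to highest value (line) over 12 libraries. Ly6e and Lynx1 have medians of 25.6 and 18.0, whereas Chrna7 has a median of 0.0745 and Chrnd of 0.00987.

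The comparison of PNU with DMSO asks how the glia differ when their co-cultured epithelium was given the agonist. None of the 9 genes that passed the filter on low counts (all but Chrnd) changed at 2 h, and none changed at 6 h, by edgeR's quasi-likelihood test with adjusted p under 0.05 over all genes tested. At 2 h 0.291% of all genes tested were called and at 6 h 1.05%. An unadjusted p under 0.05 was found for 3 of the 9 at 2 h (Chrna7, Chrnb1, Lynx1) and for 3 at 6 h (Chrnb1, Ric3, Ly6e), and DESeq2 called 1 at 2 h (Lynx1) and 2 at 6 h (Ric3 and Ly6e). The median log2 difference of the 9 genes was -0.15 at 2 h and 0.35 at 6 h, against -0.015 and -0.0049 over all genes. No gene of the 9 had a PNU effect that differed between times (adjusted p under 0.05; 0.035% of all genes did), although Ly6e and Lynx1 had an unadjusted p under 0.05, making 2, and DESeq2 called 1, Ly6e. At 2 h the PNU and DMSO values of 2 of the 10 genes did not overlap, as for 22.7% of all genes, and at 6 h those of 6 did not, against 34.9%.

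Between 2 h and 6 h the genes moved more. Within the PNU libraries 7 of the 9 rose (Chrna1, Chrng, Ric3, Ly6e, Lynx1, Ache and Bche) and none fell, where 16.1% of all genes tested were called in either direction. Their values at 2 h and 6 h did not overlap for these 7 and for Chrnd, against 51.7% of all genes. Within DMSO none of the 9 was called by edgeR, as for all genes (0% called), although 5 of the 9 had an unadjusted p under 0.05 and DESeq2 called 1, Ric3. The DMSO values of 5 of the 10 genes (Chrna1, Chrnd, Chrng, Ric3 and Bche) did not overlap between times, each higher at 6 h, against 9.75% of all genes. The median log2 difference of the 9 genes was 1.01 within PNU and 0.64 within DMSO, against 0.03 and -0.01 over all genes. As the genes were chosen with earlier results of these data known, these counts and medians are descriptions. The 7 calls within PNU depended on counting the nearly identical libraries separately: with those summed, none was called and each had an adjusted p of 0.41 to 0.418. That fit held 2 units in each PNU group and 1 in DMSO 6 h, and its log2 fold changes ran from 0.42 (Ly6e) to 3.58 (Chrng). With so few units, the loss of calls does not show that the differences were absent. Leaving out 1 library kept 3 calls without PNU 2 h replicate 2, 3 without PNU 2 h replicate 3, 4 without PNU 2 h replicate 1 and 4 without PNU 6 h replicate 2. The labels do not say whether the libraries of 2 h and 6 h came from the same cultures. Ddx3y stood at 2.23, 0.0870 and 0.0150 CPM in the PNU 2 h libraries and at 0.141, 7.43 and 6.74 in the PNU 6 h libraries. The part of differences between cultures in these rises was not tested.

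**Figure D2:**
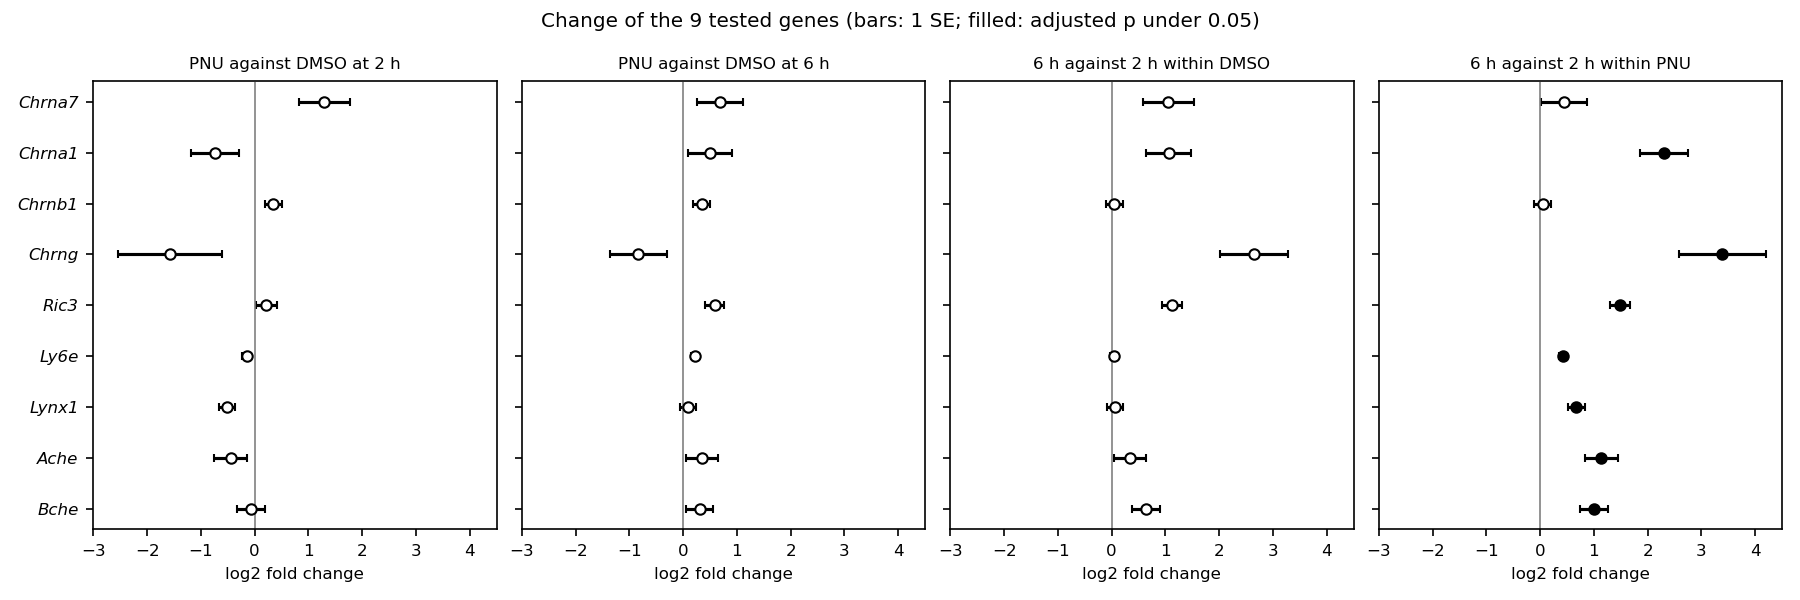
log2 fold change (horizontal axis) of the 9 genes tested in 4 comparisons, with bars of 1 standard error (SE), filled where the adjusted p is under 0.05. The 7 filled points all lie to the right of 0 in the panel of 6 h against 2 h within PNU.

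Chrna7, the receptor that PNU-282987 binds (ENSMUSG00000030525, chr7:63098692-63212569, minus strand, GRCm38), was scarce but above the floor of 3 counts in every library. At 2 h the DMSO libraries held 4, 6 and 21 counts, or 0.0676, 0.116 and 0.328 CPM in the order of replicates 1, 2 and 3, and the PNU libraries 15, 28 and 22 counts, or 0.331, 0.609 and 0.331 CPM. At 6 h the DMSO libraries had 14, 18 and 26 counts (0.316, 0.340 and 0.458 CPM) and the PNU libraries 33, 38 and 39 (0.580, 0.591 and 0.611 CPM). The lowest library, DMSO 2 h replicate 1, was barely over its floor of 0.0507 CPM, and PNU was higher than DMSO at both times with no overlap. At both times that separation was narrower than counting error. DMSO 2 h replicate 3 had an exact Poisson 95% interval of 0.203 to 0.502 CPM, which holds both of the lower PNU values. That of DMSO 6 h replicate 3 was 0.299 to 0.671 CPM, which holds all 3 PNU 6 h values. All such intervals cover counting error only.

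Group means of Chrna7 were 0.171 ± 0.139 CPM (SD, n = 3) for DMSO 2 h, 0.424 ± 0.161 for PNU 2 h, 0.371 ± 0.0760 for DMSO 6 h and 0.594 ± 0.0161 for PNU 6 h. The log2 fold change for PNU was 1.30 ± 0.47 (SE) at 2 h (edgeR adjusted p = 0.106) and 0.68 ± 0.43 at 6 h (adjusted p = 0.489), so neither passed. In summed counts the ratio was 2.33 at 2 h (65 against 31 counts, 95% interval 1.49 to 3.69) and 1.58 at 6 h (110 against 58, interval 1.14 to 2.21). The 2 h value was smaller with the library labelled DMSO 2 h replicate 3 than without it: without it the log2 fold change was 2.22 and passed (edgeR adjusted p = 0.00154). From 2 h to 6 h Chrna7 differed by 1.06 ± 0.48 on the log2 scale within DMSO (adjusted p = 0.888) and by 0.44 ± 0.43 within PNU (adjusted p = 0.481), and the values of the times overlapped in both arms.

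**Figure D3:**
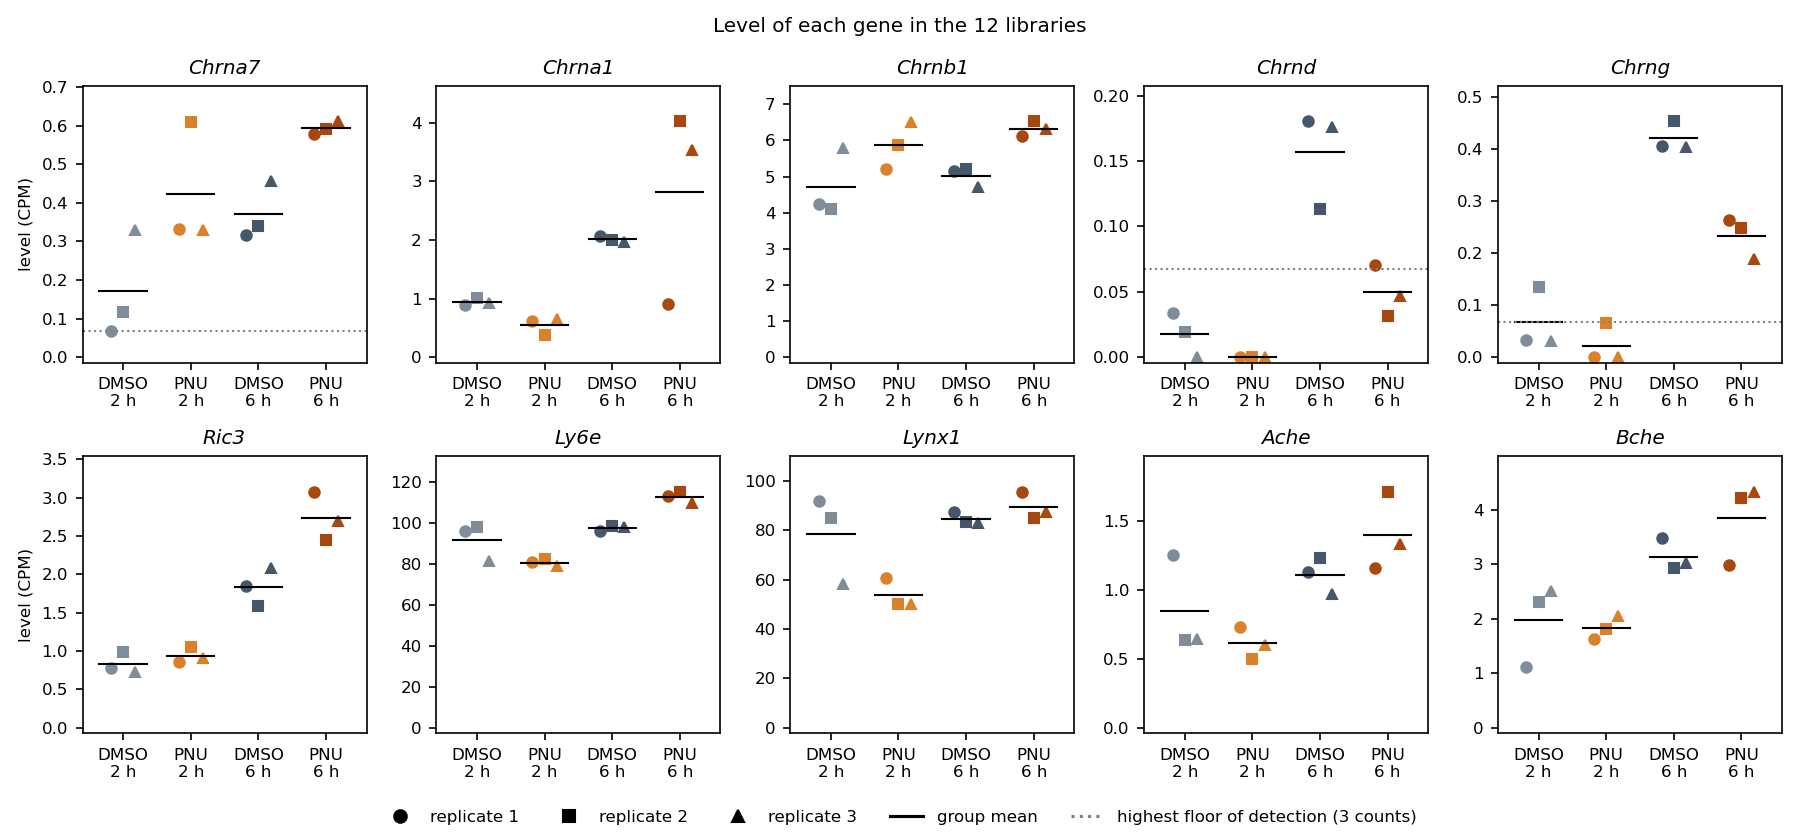
Level in CPM (vertical axis, a scale of its own in each panel) of the 10 genes in each library by group, with replicates 1, 2 and 3 as circle, square and triangle, the group mean as a bar and, for the 3 scarcest genes, the highest floor of 3 counts (0.0677 CPM) as a dotted line. Chrna7 is above its own floor in all 12 libraries, and DMSO 2 h replicate 3 and PNU 6 h replicate 1 stand apart from their groups for Lynx1 and Chrna1.

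Chrna1, the ligand-binding α subunit of the muscle receptor (ENSMUSG00000027107, chr2:73563215-73580338, minus strand), was lower at 2 h than at 6 h in both arms. The DMSO libraries had 0.895, 1.00 and 0.923 CPM at 2 h and 2.08, 2.00 and 1.97 at 6 h. The PNU libraries had 0.619, 0.370 and 0.646 CPM at 2 h and 0.913, 4.03 and 3.54 at 6 h. PNU was below DMSO in all libraries at 2 h, and at 6 h it was above DMSO in 2 libraries and below in PNU 6 h replicate 1. The rise within PNU was 2.30 ± 0.44 on the log2 scale (edgeR adjusted p = 0.0102), lost without PNU 2 h replicate 2 (2.09, adjusted p = 0.0509), and the difference within DMSO was 1.06 ± 0.42 (adjusted p = 0.888). For PNU against DMSO the log2 fold change was -0.74 ± 0.44 at 2 h (adjusted p = 0.271) and 0.50 ± 0.41 at 6 h (adjusted p = 0.602). Without PNU 6 h replicate 1 the 6 h value was 0.92 and passed (edgeR adjusted p = 0.032), as did the difference between times (1.66, adjusted p = 0.0349, against 1.24 ± 0.60 and 0.469 with it). Without both libraries that stood apart, the 2 h value (-0.74, adjusted p = 0.0154) and the difference within DMSO (1.05, adjusted p = 0.0435) passed too. Both libraries were picked for lying near the other arm over all genes. Without them 9080 of all genes passed at 2 h, against 50 with them, and 117 within DMSO, against 0.

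Some skeletal muscle genes, named here after their values were seen, moved in the same libraries as Chrna1. Pax7, a factor of muscle stem cells, had 8, 100 and 152 counts in the PNU 6 h libraries, Myod1, a myogenic factor, 1, 57 and 67, and Myog, which drives muscle differentiation, 10, 44 and 36. In PNU 6 h replicate 1 these genes were thus far below the other PNU 6 h libraries, like Chrna1 and like Rapsn, which clusters the muscle receptor (0.211 against 1.35 and 1.43 CPM). The muscle receptor subunits Chrng (0.263 against 0.249 and 0.188 CPM) and Chrnd (0.0703 against 0.0311 and 0.0470) were not lower there. Of the 18 listed muscle genes, 13 were lower in PNU 6 h replicate 1 than in both other libraries of the group. The same share over all genes was not counted. As this library lay apart from its group over all genes, the count cannot be read as particular to muscle genes. The summed level of the whole list was 7.60 to 12.6 CPM for DMSO 2 h, 7.14 to 8.23 for PNU 2 h, 11.5 to 11.9 for DMSO 6 h and 13.3 to 23.6 for PNU 6 h, with 3 of the 18 above a median of 1 CPM. Myod1 was at 0 counts in all PNU 2 h libraries and in DMSO 2 h replicate 2. Within PNU, 5 of the 12 muscle genes tested rose from 2 h to 6 h and none fell, where 16.1% of all genes were called (median log2 fold change 1.65, against 0.03 over all genes), and for PNU against DMSO at 6 h none of the 12 was called by edgeR. The part of muscle-lineage RNA in the level of Chrna1 was not tested.

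**Figure D4:**
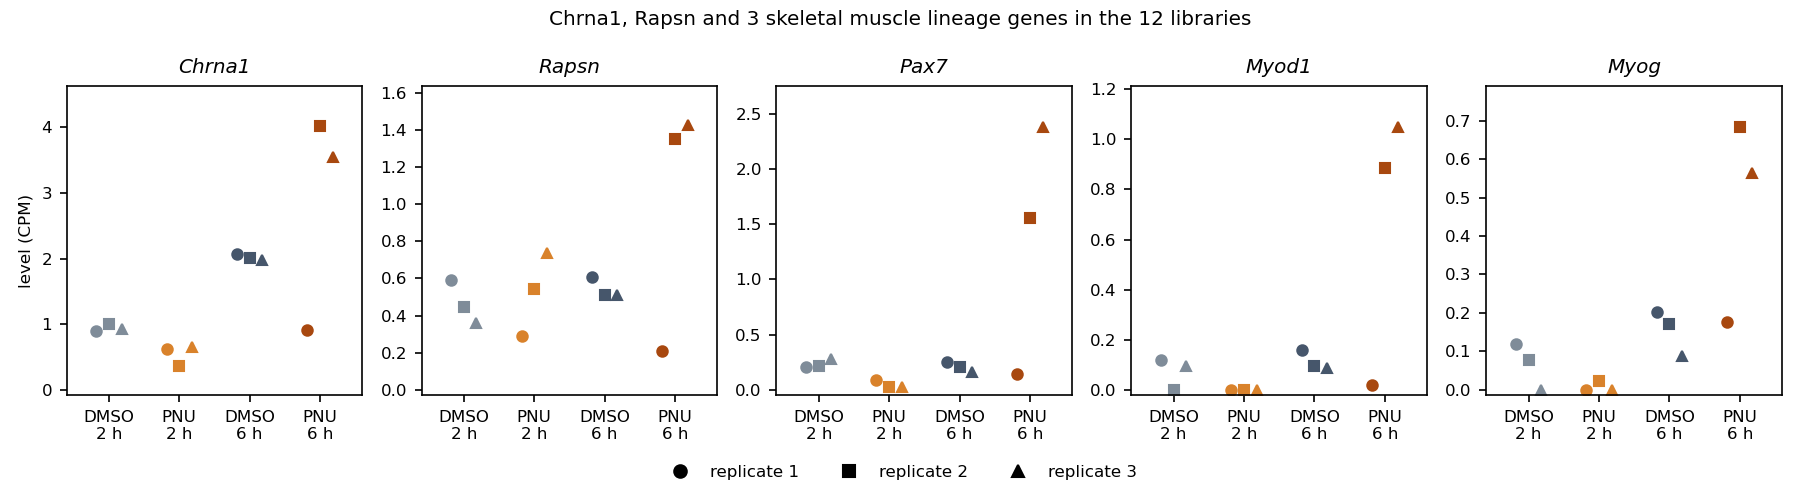
Level in CPM (vertical axis, a scale of its own in each panel) of Chrna1, Rapsn, Pax7, Myod1 and Myog in each library by group, with replicates 1, 2 and 3 as circle, square and triangle. In all 5 panels PNU 6 h replicate 1 lies below replicates 2 and 3 of its group, for Chrna1 at 0.913 against 4.03 and 3.54 CPM. The genes beside Chrna1 were picked after their values were seen, and 13 of the 18 listed muscle genes lay so.

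Chrng and Chrnd, the fetal γ subunit and the δ subunit of the muscle receptor, were close to the floor at 2 h and above it in the DMSO libraries at 6 h. They lie side by side on the plus strand of chromosome 1 (Chrnd, ENSMUSG00000026251, chr1:87190607-87200070, and Chrng, ENSMUSG00000026253, chr1:87204657-87212694). Chrng had 2, 7 and 2 counts in DMSO 2 h, 0, 3 and 0 in PNU 2 h, 18, 24 and 23 in DMSO 6 h and 15, 16 and 12 in PNU 6 h. Its CPM did not overlap between the times in either arm, and at 6 h each PNU library was below each DMSO library. The rise within PNU was 3.39 ± 0.81 on the log2 scale (edgeR adjusted p = 0.0216), with a ratio of summed counts of 12.2 (95% interval 3.91 to 61.6). It did not pass without PNU 2 h replicate 1 (2.93, adjusted p = 0.0646), PNU 2 h replicate 3 (2.69, adjusted p = 0.0878) or PNU 6 h replicate 2 (3.34, adjusted p = 0.06), and it was 6.73 without PNU 2 h replicate 2. Within DMSO the log2 difference was 2.65 ± 0.63 (adjusted p = 0.799) and the count ratio 6.71 (interval 3.52 to 14.1). For PNU against DMSO the log2 fold change was -1.58 ± 0.97 at 2 h (adjusted p = 0.279) and -0.84 ± 0.53 at 6 h (adjusted p = 0.49).

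Chrnd had 2, 1 and 0 counts in DMSO 2 h, none in PNU 2 h, 8, 6 and 10 in DMSO 6 h and 4, 2 and 3 in PNU 6 h. It was thus over the floor in all 3 DMSO 6 h libraries and in 1 PNU 6 h library, and it did not pass the filter for the test. The count ratio of DMSO 6 h to DMSO 2 h was 9.09 (95% interval 2.76 to 47.1), and that of PNU 6 h to DMSO 6 h was 0.312 (interval 0.128 to 0.695). Within PNU, Chrnd had 9 counts in all at 6 h and none at 2 h, so no ratio is given. The edgeR test without the filter did not call this change (adjusted p = 0.077). The intervals of the count ratios hold no spread between cultures.

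Chrnb1, the β subunit of the muscle receptor (ENSMUSG00000041189, chr11:69784036-69795943, minus strand), was the most abundant subunit and, unlike Chrna1 and Chrng, was not called between times. The DMSO libraries had 4.24, 4.09 and 5.80 CPM at 2 h and 5.14, 5.22 and 4.70 at 6 h. The PNU libraries had 5.21, 5.88 and 6.52 CPM at 2 h and 6.11, 6.53 and 6.32 at 6 h. At 6 h PNU was above DMSO in every library, and at 2 h only DMSO replicate 3 reached into the range of PNU. The log2 fold change for PNU was 0.35 ± 0.15 at both times (edgeR adjusted p = 0.155 at 2 h and 0.306 at 6 h), and the 2 h value was 0.53 and passed without DMSO 2 h replicate 3 (adjusted p = 0.006). Without both libraries that stood apart the 6 h value was 0.37 and passed (adjusted p = 0.0295). From 2 h to 6 h the difference was 0.05 ± 0.15 in both arms (adjusted p = 0.979 within DMSO and 0.846 within PNU).

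Ric3, the chaperone of α7 receptors (ENSMUSG00000048330, chr7:109034312-109083331, minus strand), was higher at 6 h than at 2 h in every library of both arms. The DMSO libraries had 0.777, 0.985 and 0.719 CPM at 2 h and 1.85, 1.59 and 2.08 at 6 h. The PNU libraries had 0.862, 1.04 and 0.902 CPM at 2 h and 3.07, 2.44 and 2.70 at 6 h. The arms overlapped at 2 h, whereas at 6 h every PNU library was above every DMSO library. The rise within PNU was 1.49 ± 0.19 on the log2 scale (edgeR adjusted p = 0.00256) and passed on leaving out any 1 library. Within DMSO the difference was 1.12 ± 0.19 (adjusted p = 0.441), and it passed with DESeq2 (1.13, adjusted p = 0.000907) and without both libraries that stood apart (1.03, adjusted p = 0.032). For PNU against DMSO the log2 fold change was 0.22 ± 0.19 at 2 h (adjusted p = 0.45) and 0.59 ± 0.18 at 6 h (adjusted p = 0.147), which without both of those libraries was 0.49 and passed (adjusted p = 0.0444). Over 149 bases, 1.74% of its exons, Ric3 overlaps Tub on the opposite strand (0.155 to 1.12 CPM), and without a stated strand setting reads there cannot be told apart.

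Tmem35a, which encodes the receptor chaperone NACHO, was more abundant than Ric3, at 9.89 to 22.3 CPM and differed in the other direction between times within PNU. Its values were 14.4, 17.2 and 20.2 CPM in DMSO 2 h, 15.9, 20.7 and 20.3 in PNU 2 h, 21.5, 22.3 and 21.9 in DMSO 6 h and 9.89, 15.0 and 14.8 in PNU 6 h. At 6 h PNU was below DMSO in every library (log2 fold change -0.71 ± 0.17, edgeR adjusted p = 0.0721). Within PNU it fell from 2 h to 6 h by 0.58 ± 0.17 on the log2 scale (edgeR adjusted p = 0.0387), a call that was lost on leaving out any 1 of the 6 PNU libraries (adjusted p = 0.0511 to 0.127). Of the 12 other chaperones and Ly6 family modulators listed, 7 were tested; within PNU Cd59a, a membrane protein that blocks complement, rose by 0.74 ± 0.12 (adjusted p = 0.00542), Tmem35a fell, and at 2 h and at 6 h PNU against DMSO called none by edgeR.

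Ly6e (ENSMUSG00000022587, chr15:74955051-74959905, plus strand), the most abundant of the 10 genes per kb, was spread narrowly. The DMSO libraries had 95.8, 97.7 and 81.3 CPM at 2 h and 95.9, 98.6 and 98.1 at 6 h. The PNU libraries had 80.8, 82.2 and 78.8 CPM at 2 h and 113, 115 and 109 at 6 h. PNU was above DMSO in every library at 6 h, and at 2 h DMSO replicate 3 lay among the PNU values and the other DMSO libraries above them. Ly6e rose from 2 h to 6 h within PNU by 0.42 ± 0.08 (edgeR adjusted p = 0.00838), a call kept on leaving out any 1 library, and the difference within DMSO was 0.05 ± 0.08 (adjusted p = 0.944). The log2 fold change for PNU was -0.15 ± 0.08 at 2 h (adjusted p = 0.204) and 0.22 ± 0.08 at 6 h (adjusted p = 0.189), and the difference between them was 0.37 ± 0.11 (adjusted p = 0.246). Without DMSO 2 h replicate 3 the 2 h value was -0.23 (adjusted p = 0.00947) and the difference 0.45 (adjusted p = 0.00422), and both passed. The 6 h value passed without both libraries that stood apart (0.22, adjusted p = 0.0119).

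Lynx1 (ENSMUSG00000022594, chr15:74747852-74753046, minus strand) stood lower in the PNU 2 h libraries than in most others. The DMSO libraries had 91.9, 84.9 and 58.0 CPM at 2 h and 87.5, 83.2 and 82.9 at 6 h. The PNU libraries had 60.6, 50.3 and 50.0 CPM at 2 h and 95.5, 85.0 and 87.5 at 6 h. The library labelled DMSO 2 h replicate 3 was within the PNU 2 h range, and at 6 h the arms overlapped. At 2 h the log2 fold change was -0.51 ± 0.15 (edgeR adjusted p = 0.0775), and it passed with DESeq2 (-0.50, adjusted p = 0.0249) and without DMSO 2 h replicate 3 (-0.69, edgeR adjusted p = 0.000338). At 6 h it was 0.09 ± 0.15 (adjusted p = 0.81), and the difference between times was 0.61 ± 0.21 (adjusted p = 0.343, or 0.78 and 0.00395 without DMSO 2 h replicate 3). Within PNU Lynx1 rose by 0.68 ± 0.15 (adjusted p = 0.0177), which did not pass without PNU 2 h replicate 2 (0.62, adjusted p = 0.0725) or PNU 2 h replicate 3 (0.62, adjusted p = 0.0734). Within DMSO the difference was 0.07 ± 0.15 (adjusted p = 0.965).

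Ache (ENSMUSG00000023328, chr5:137287519-137294466, plus strand) and Bche (ENSMUSG00000027792, chr3:73635808-73708415, minus strand) were both higher at 6 h than at 2 h within PNU. Ache had 1.25, 0.637 and 0.641 CPM in DMSO 2 h, 0.729, 0.500 and 0.601 in PNU 2 h, 1.13, 1.23 and 0.969 in DMSO 6 h and 1.16, 1.71 and 1.33 in PNU 6 h. Bche had 1.11, 2.30 and 2.50 CPM in DMSO 2 h, 1.63, 1.81 and 2.04 in PNU 2 h, 3.47, 2.93 and 3.01 in DMSO 6 h and 2.99, 4.21 and 4.33 in PNU 6 h. The arms overlapped at both times for both enzymes, and DMSO 2 h replicate 1 was the highest of its group for Ache and the lowest for Bche. Within PNU the rise was 1.14 ± 0.30 on the log2 scale for Ache (edgeR adjusted p = 0.031) and 1.01 ± 0.26 for Bche (adjusted p = 0.0273). Each call was lost on leaving out any 1 PNU library other than PNU 6 h replicate 1: for Ache the adjusted p was then 0.0549 (without PNU 2 h replicate 1), 0.113 (2 h replicate 2), 0.103 (2 h replicate 3), 0.0951 (6 h replicate 2) and 0.0667 (6 h replicate 3). For Bche the values were 0.0843, 0.0917, 0.075, 0.0791 and 0.0807 in the same order. For PNU against DMSO the log2 fold change of Ache was -0.44 ± 0.31 at 2 h (adjusted p = 0.339) and 0.35 ± 0.29 at 6 h (adjusted p = 0.613), and that of Bche -0.06 ± 0.26 (adjusted p = 0.885) and 0.31 ± 0.26 (adjusted p = 0.613). Ache shares 98 bases, 2.12% of its exons, with Gm42456 on the opposite strand, which had no counts.

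Among other genes of acetylcholine handling, 2 of 3 listed choline carriers (Slc5a7 and Slc44a1) fell with PNU at 6 h. Slc5a7, the high-affinity choline transporter that supplies acetylcholine synthesis in neurons, had 41.1, 43.8 and 41.6 CPM in DMSO 6 h and 19.0, 16.7 and 17.4 in PNU 6 h. At 2 h it had 22.0, 34.3 and 26.9 CPM in DMSO and 24.5, 21.1 and 19.2 in PNU. The arms were thus apart at 6 h, with PNU 6 h replicate 1 on the side of its group, and overlapped at 2 h. At 6 h the log2 fold change was -1.24 ± 0.14 (edgeR adjusted p = 0.00276), and it passed in 14 of 15 alternatives (adjusted p 5.51e-13 to 1), the exception being the sum of nearly identical libraries (adjusted p = 1). At 2 h it was -0.31 ± 0.14 (adjusted p = 0.149), and the difference between times was -0.92 ± 0.19 (adjusted p = 0.126).

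Slc44a1, a choline carrier of many cell types, had 76.0, 77.3 and 76.9 CPM in DMSO 6 h and 53.5, 42.6 and 42.2 in PNU 6 h, again without overlap. It fell by 0.72 ± 0.12 on the log2 scale (edgeR adjusted p = 0.0215), a call lost without DMSO 6 h replicate 1 (adjusted p = 0.106), DMSO 6 h replicate 2 (0.115), DMSO 6 h replicate 3 (0.113), PNU 6 h replicate 2 (0.135), PNU 6 h replicate 3 (0.128) or the separate count of nearly identical libraries (1). Of the 8 genes listed for cholinesterase anchors and acetylcholine handling, 4 were tested at 6 h, of which none rose and 2 fell (median log2 fold change -0.95, against -0.0049 over all genes, of which 1.05% were called). The third carrier, Slc44a2, had 159, 163 and 158 CPM in DMSO 6 h and 195, 124 and 130 in PNU 6 h, which overlap, and was not called (log2 fold change -0.08 ± 0.26, adjusted p = 0.912). Chat, the enzyme that makes acetylcholine, had 1 count in 1 library and none in the other 11, and Slc18a3, which loads it into vesicles, had at most 2 counts.

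Colq, the collagen tail that anchors acetylcholinesterase at the muscle synapse, had 0.709, 0.734 and 0.0469 CPM in DMSO 2 h and 0.0218 to 0.0442 in PNU 2 h, where it was at or under the floor. At 6 h it had 0.744, 0.624 and 0.599 CPM in DMSO and 0.422, 0.187 and 0.251 in PNU. DMSO 2 h replicate 3 was again beside the PNU 2 h libraries. Within PNU Colq rose by 3.02 ± 0.93 on the log2 scale (edgeR adjusted p = 0.0481), a call lost on leaving out any 1 of the 6 PNU libraries (adjusted p = 0.0712 to 0.145). For PNU against DMSO the log2 fold change was -3.83 ± 0.90 at 2 h (adjusted p = 0.0636) and -1.18 ± 0.64 at 6 h (adjusted p = 0.413).

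**Figure D5:**
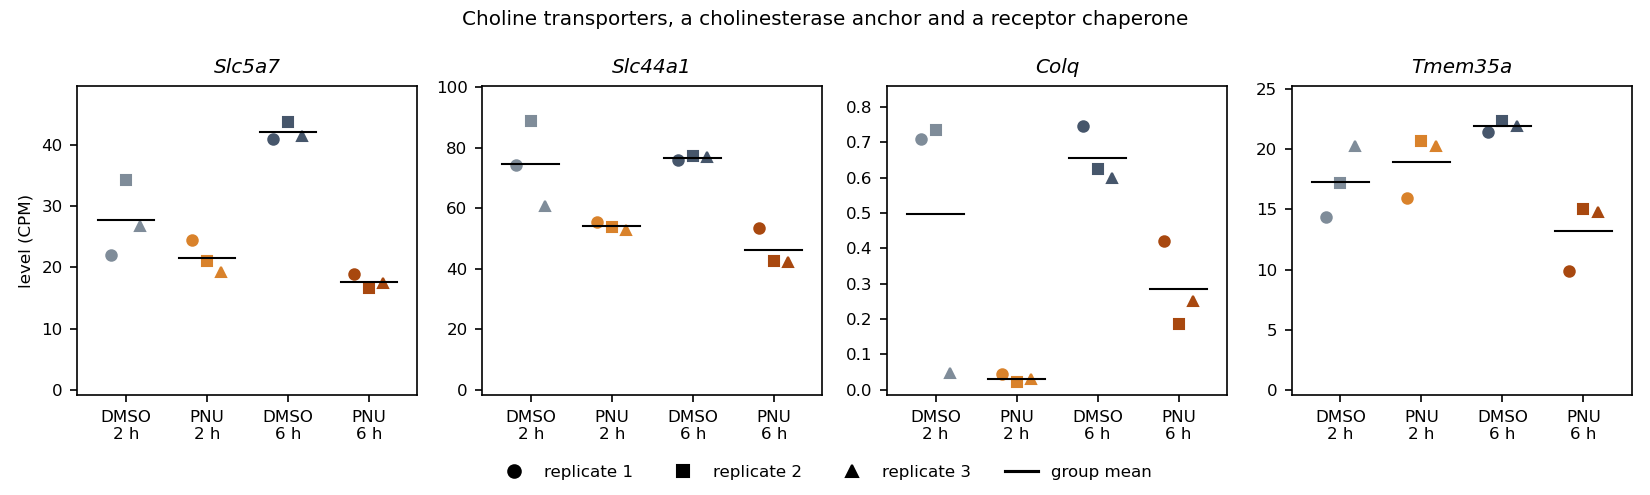
Level in CPM (vertical axis, a scale of its own in each panel) of the choline transporters Slc5a7 and Slc44a1, the cholinesterase anchor Colq and the chaperone Tmem35a in each library by group, with replicates 1, 2 and 3 as circle, square and triangle and the group mean as a bar. For Slc5a7 the DMSO 6 h libraries lie between 41.1 and 43.8 CPM and the PNU 6 h libraries between 16.7 and 19.0.

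The remaining nicotinic subunits were scarce. Of 11 listed, 5 were at or under the floor in all 12 libraries, and 2 were tested: Chrnb2 at 0.832 to 1.63 CPM and Chrna4, its usual partner in the brain, at 0.141 to 0.456 CPM. Neither was called by edgeR in any of the 5 comparisons. Of 5 genes that cluster the muscle receptor, 4 were tested and none was called in any comparison, with Agrn, the nerve-derived signal for clustering, at 32.7 to 49.7 CPM and Lrp4, its receptor, at 9.40 to 18.7 CPM. Of 5 muscarinic receptors, which couple to G proteins, 2 were tested (Chrm1 at 0.0782 to 0.579 CPM and Chrm4 at 0.0677 to 0.287 CPM) and none was called.

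For the genes with a mean of at least 1 CPM, the 3 genes of most similar profile were sought by Pearson correlation of log2(CPM + 0.5) over the 12 libraries among all genes tested. These are descriptions over libraries that share groups and near-identical pairs. For Chrna1 they were St6gal1 (r = 0.975), Mmp3 (0.974) and Pik3c2b (0.953), and for Chrnb1 Cdh6 (0.956), Cd24a (0.940) and Pkm (0.931). For Ric3 they were Prss35 (0.967), Fat4 (0.945) and Rnf130 (0.943), and for Bche Tspyl5 (0.939), Nucb2 (0.937) and Ghitm (0.935). Ly6e was most like Lrrc3 (0.974), Cd151 (0.968) and Mboat2 (0.967), and Lynx1 was most like Mfap5 (0.983), Mfsd3 (0.983) and Tmem141 (0.982). None of the 10 genes was among the 3 most similar to another. With nearly identical libraries summed into 8 units, each of these 18 correlations was between 0.945 and 0.990.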

How the data were processed

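RNA of cultured Müller glia was measured in 12 libraries of 4 groups, grouped by their titles. Per the labels' protocols, RNA was poly(A)-selected and sequenced as paired reads of 150 bases, trimmed with fastp 0.23.2, aligned to GRCm38 with STAR 2.5.2b, and assigned to genes with featureCounts from Subread 1.5.2. The strand setting, the treatment of reads with several matches and the annotation release are not given in the sources used here, and DESeq2 is named in the submitters' processing notes without a role. The deposited values are raw read counts per Ensembl gene, with the authors' deposited gene length as another column, taken here as the length of exon. Symbols were matched through GENCODE M21 for 48970 of 49315 gene IDs.

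CPM are counts over the library total. Tests used edgeR 4.0.16 (quasi-likelihood, TMM scaling, filterByExpr by group, Benjamini-Hochberg over 17164 genes, threshold 0.05) on all 12 libraries with 4 group means. The code was checked on simulated independent libraries. These held no nearly identical libraries and none that stood apart, so the check does not vouch for the p-values here. Ratios of summed counts have conditional exact 95% intervals. Alternatives were DESeq2 1.42.0, other scalings and filters, a replicate block, groups alone, summed libraries and libraries left out. The labels call the libraries biological replicates without naming animals or cultures, so the p-values reflect no more than how these samples varied, which may be technical. The genes and lists were chosen with earlier results of these data known. All 10 genes are named, and from the other lists some of the genes that were called or abundant, but not all of them. Rapsn, Myod1, Myog, Pax7, Sox2, Ddx3y, Chat and Slc18a3 were singled out after their values were seen. The figures were drawn with matplotlib 3.10.9.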

Additional observations from a re-analysis of the deposited data

How the results depend on the processing

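In the order PNU against DMSO at 2 h, at 6 h, their difference, the change with time within DMSO and that within PNU, the calls among the 10 genes numbered 0, 0, 0, 0 and 7 and those among all genes 50, 181, 6, 0 and 2759. DESeq2 called 1, 2, 1 and 1 of the 10 in the first 4 comparisons and 2511, 923, 279 and 23 of all genes. Without both libraries that stood apart, 5, 4, 3 and 2 of the 10 were called, and 9080, 4981, 3788, 117 and 6170 of all genes. Those libraries were picked by their distances in these same data, so these counts are descriptions. With nearly identical libraries summed, all-gene counts were 0 at 2 h, 6 h, for the difference and within PNU, where 0 of the 10 remained. Fitting the groups of a comparison alone gave 1 of the 10 at 6 h and 0 (2 h), 1646 (6 h) and 5311 (within PNU) genes, and it could not be run for the difference. Without the filter 140 genes were called at 2 h and 15 for the difference, and with library totals only 0 for the difference. Leaving out 1 library gave 0 to 4, 0 to 1, 0 to 2 and 3 to 7 of the 10 (2 h, 6 h, difference, within PNU) and 0 to 7724, 22 to 1057, 0 to 2947, 0 to 4 and 566 to 1710 of all genes. Where a library left out changed a call among the 10 genes, it is named beside the gene. The cause of these changes was not tested.

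Signs turned for values near 0. Without both libraries that stood apart, Bche at 2 h was 0.17, and within DMSO Ly6e was -0.023 and Lynx1 -0.10. The difference between times of Chrnb1 was 0.015 with library totals only, 0.0050 without the filter and 0.012 with libraries summed. Over single libraries left out, Bche at 2 h ran from -0.33 to 0.16, the difference of Chrnb1 from -0.18 to 0.11 and that of Chrng from -0.16 to 4.08, the change within DMSO from -0.064 to 0.23 for Chrnb1, from -0.026 to 0.11 for Ly6e and from -0.10 to 0.23 for Lynx1, and that within PNU from -0.020 to 0.13 for Chrnb1.

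With a replicate block 311 genes were called at 2 h, 296 at 6 h and 0 for the difference, and no call among the 10 genes changed. Samples of the same number deviated together only within PNU (correlations of 0.170, 0.111 and 0.0993), and same-numbered pairs elsewhere reached no more than 0.0577, so the numbers were not taken to pair the samples. TMM factors ran from 0.958 to 1.03. Depth limited Chrnd, Chrng and Chrna7, whose counts were at most 10, 24 and 39 per library.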
